A study of Mus musculus with 24 samples.

Results

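The cytosolic ribosomal protein genes were described in *M. gastrocnemius* of mice after 6 h of hypoxia. They were chosen by name: every probe on the array named *Rpl* or *Rps* with a number, *Rplp0*, *Rplp1*, *Rplp2* or *Rpsa*, which gave 189 of the 55681 probes and 84 genes. A probe counted as measured where its mean Cy5 signal over the 24 arrays exceeded 2 times the local background. This left 174 member probes of 14312 measured probes and 81 member genes of 9139 measured genes, of which 49 code for the large subunit (*Rpl* and *Rplp*) and 32 for the small subunit (*Rps* and *Rpsa*). Not measured were *Rpl10l*, *Rpl39l* and *Rpl7l1*. The member probes just outside the limit reached 1.69 times the background and those just inside started at 2.18 times.

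The arrays compared 12 Norm mice with 12 Hypox mice, all male C57BL/6JOlaHsd, individually housed, which arrived at an age of 10 weeks. All received a purified low-fat diet (10% of energy from fat) for 3 weeks and then a purified high-fat diet (40% of energy from fat) for 6 weeks. They were fasted and kept for 6 h at 20.9% oxygen (Norm) or 12% oxygen (Hypox). RNA of the whole muscle of each mouse was labelled with Cy5 and hybridized against a Cy3-labelled pool of all samples, so that every value is a log2 ratio to that pool, and only differences between arrays for the same probe can be read. In whole muscle, fewer cells of a type and less RNA per cell cannot be told apart. All 11 markers of the muscle fiber were measured and none of them passed the test.

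A ribosome joins a small subunit, which reads the mRNA, and a large subunit, which makes the peptide bond. Each subunit holds ribosomal RNA and many different proteins, nearly all in a single copy, so that their genes are usually expressed together at high levels. The mRNAs of these genes begin with a pyrimidine-rich tract (the TOP motif), through which their translation, more than their abundance, is known to follow nutrient supply and mTOR activity. Muscle is also a tissue with its own large subunit protein, *Rpl3l*, which replaces *Rpl3* in mature fibers.

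The tract and the array probes that carried the results were as follows. The windows hold 30 bases around the transcript start annotated by RefSeq (GRCm38.p6), whose first transcribed base is the 16th, and capitals mark each C followed by at least 4 bases C or T. They show the tract at the start of *Rplp2*, *Rps9* and *Rpl31* and none next to the annotated start of *Rps7* and *Rps15*.
*Rplp2*, chr7:141447636-141447665, plus strand: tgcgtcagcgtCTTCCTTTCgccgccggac
*Rps9*, chr7:3704026-3704055, plus strand: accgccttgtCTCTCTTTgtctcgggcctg
*Rpl31*, chr1:39367836-39367865, plus strand: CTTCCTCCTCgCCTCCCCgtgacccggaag
*Rps7*, chr12:28635939-28635968, minus strand: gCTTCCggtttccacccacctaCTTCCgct
*Rps15*, chr10:80292416-80292445, plus strand: cccggcagagctcgcgataactgcgcaagc

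The probes below are those of *Rpl30*, *Rps7* and *Rpl31*, which were lower in Hypox, of *Rpl27*, whose probes went opposite ways, and of *Rps15*, one of the reference genes of the study's Q-PCR. Positions are those of the array annotation on mm9, and capitals mark bases in a run of 25 or more that a probe of another name on the array also held.
*Rpl30*, brightest, chr15:34371013-34371072: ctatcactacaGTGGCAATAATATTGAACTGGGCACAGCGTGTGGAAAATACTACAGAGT
*Rpl30*, next in brightness, chr15:34372403-34372462: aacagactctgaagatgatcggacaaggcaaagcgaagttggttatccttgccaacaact
*Rps7*, chr12:29319087-29319146: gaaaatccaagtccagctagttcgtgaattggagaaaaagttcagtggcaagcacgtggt
*Rpl31*, brightest, chr1:39427800-39427861: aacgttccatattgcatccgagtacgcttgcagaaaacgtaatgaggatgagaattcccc
*Rpl27*, brightest, chr11:101306763-101306822: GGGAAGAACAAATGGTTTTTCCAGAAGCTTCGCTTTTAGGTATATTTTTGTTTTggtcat
*Rpl27*, dimmest, chr11:101304045-101304104: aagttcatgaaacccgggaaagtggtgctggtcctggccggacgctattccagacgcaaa
*Rps15*, brightest, chr10:79756716-79756775: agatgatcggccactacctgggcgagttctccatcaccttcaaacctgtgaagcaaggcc

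Of the 61 measured members found in the RefSeq promoter table, 29 (47.5%) held the tract within 5 bases of an annotated start, against 21.2% of the 27025 genes of the table. The ETS motif CCGGAAG, on either strand of the 300 bases around the start, was found in 25 members (41.0%), against 9.93% of all genes. The core of the hypoxia response element, ACGTG, was found on either strand in 20 members (32.8%), against 21.8% of all genes; it lies within the E-box CACGTG. The members with the tract had a median log2 fold change of -0.042 (13 higher, 16 lower) and those without it -0.05 (14 higher, 18 lower). With ACGTG the median was 0.00081 and without it -0.056, and with CCGGAAG it was -0.12 against -0.0073 without it.

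Few of the cytosolic ribosomal protein genes passed the test between Hypox and Norm. With each gene represented by its brightest probe, 4 of 49 *Rpl* genes (8.16%) passed an unadjusted *P*-value of 0.05, *Rpl17* higher and *Rpl30*, *Rpl23* and *Rpl31* lower in Hypox. Of 32 *Rps* genes, 1 (3.12%) passed, *Rps7*, which was lower. Over all 9139 genes 12.1% passed, 7.07% higher and 4.99% lower, so that the share of either subunit lay below that of all genes. The median SE was 0.153 for the *Rpl* and 0.150 for the *Rps* genes, against 0.0956 for all genes. A member thus usually needed a larger change to pass, and the part of this in the lower shares was not tested. The *Rps* count rose to 6 (18.8%) without Norm replicate 12, beside 13.4% of all genes. With array weights 9 *Rpl* genes (18.4%) and 7 *Rps* genes (21.9%) passed, beside 18.5% of all genes, and the counts with the slide as a block are given with the slides. None of the 81 genes passed after adjustment over all probes, where the smallest adjusted *P*-value among them was 0.168 (limma); by the methods' t-test 3 *Rpl* genes and 1 *Rps* gene passed unadjusted (12.2% of all genes) and none after adjustment.

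The medians of both subunits lay slightly below that of all genes. Their median log2 fold changes were -0.056 over the *Rpl* genes (20 higher, 29 lower) and -0.066 over the *Rps* genes (14 higher, 18 lower), against 0.029 for all genes, and both turned to above the median of all genes when arrays were centred without loess (by 0.25 and 0.23). The *Rpl* median was also above 0 with Cy5 alone (0.091, beside 0.020 for all genes) and with the dimmest probe of each gene (0.040, beside 0.031). In the authors' deposited log2 values the medians were 0.37 and 0.30, against 0.085 for all genes, and under both of these settings no member passed unadjusted, beside 0.372% of all genes with centring and 5.3% in the deposited values. With the processed signals of the scanner software 11 members passed higher and 3 lower (17.3% of 81), in place of 1 and 4, while the share of all genes was 12.4% (7.11% higher and 5.29% lower). The median *Rpl* ratio of an array ran from -0.0049 to 0.65 (median 0.19) in the Norm arrays and from 0.019 to 0.63 (median 0.13) in the Hypox arrays (12 arrays each). For the *Rps* genes it ran from -0.081 to 0.66 (median 0.20) in the Norm arrays and from -0.063 to 0.64 (median 0.18) in the Hypox arrays. The groups overlapped over nearly their whole range. In no member gene were they apart, and the same was not counted over all genes.

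**Figure D1:**
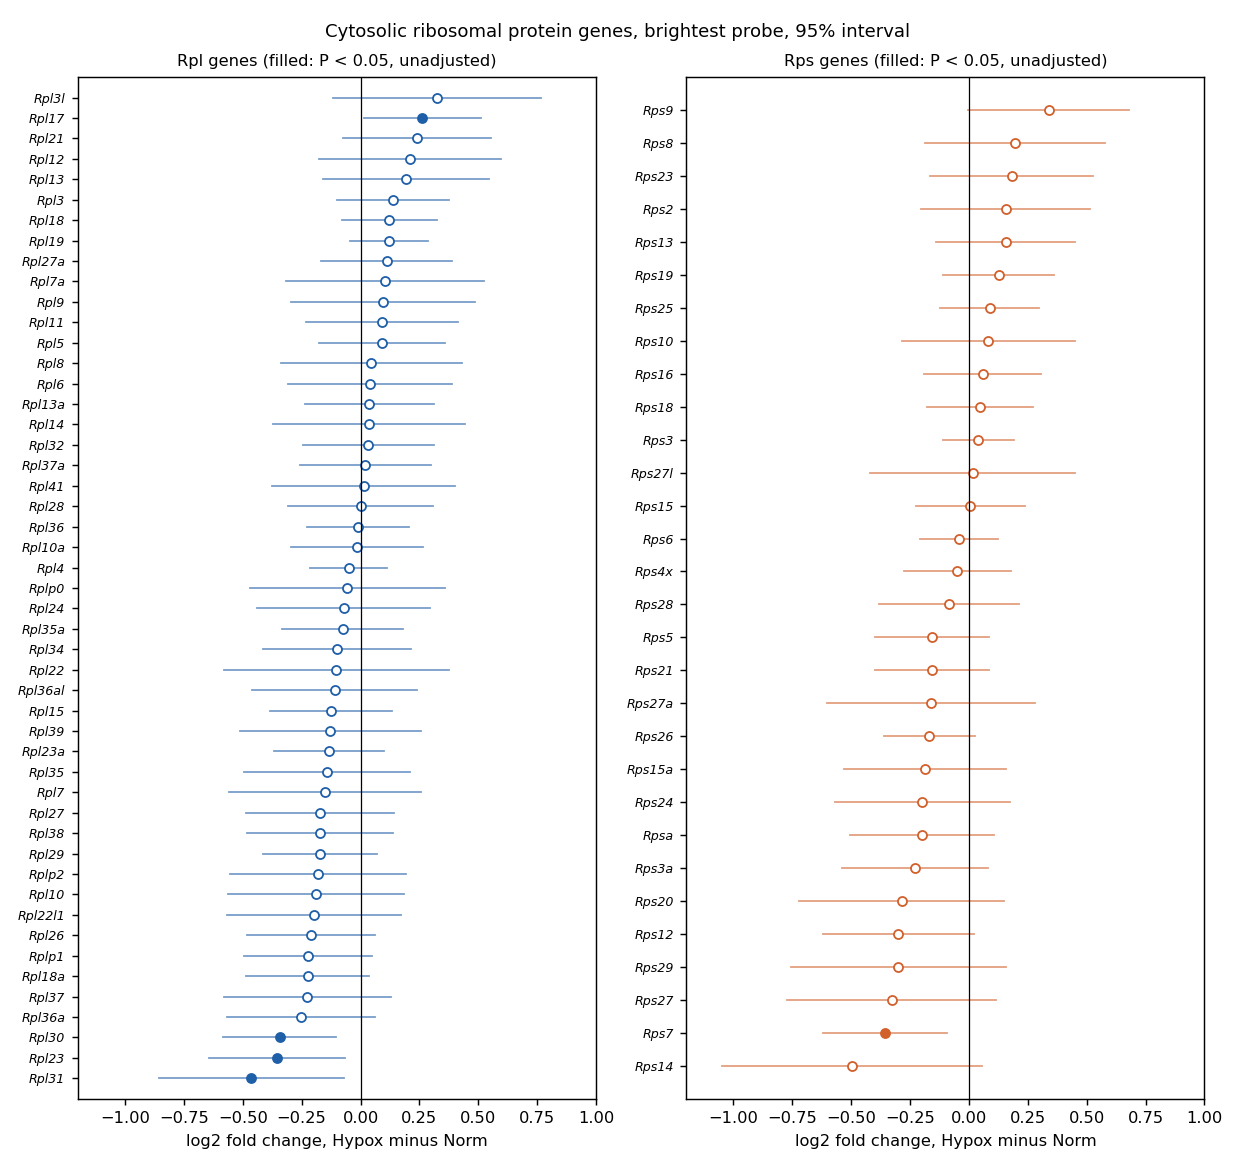
Log2 fold change of Hypox minus Norm (x axis) of the measured *Rpl* genes (left) and *Rps* genes (right) reported by name, by the brightest probe, with the 95% interval from limma (12 arrays per group); filled points passed an unadjusted *P*-value of 0.05. The 4 filled *Rpl* genes and the filled *Rps7* stand at or near the ends of an otherwise unbroken series around 0.

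*Rpl17*, a protein of the large subunit at the exit of the peptide tunnel, was the only member gene whose brightest probe passed higher in Hypox. Its brightest probe (chr18:75161731-75162328 on mm9) ran from -0.36 to 0.64 (median -0.067) in the Norm arrays and from -0.50 to 0.79 (median 0.29) in the Hypox arrays. The log2 fold change of this probe was 0.26 (SE 0.121, *P*-value = 0.0392, adjusted 0.323) and the groups overlapped widely. The other 6 *Rpl17* probes were also higher, and each of the 7 passed unadjusted, with log2 fold changes from 0.20 to 0.60 and *P*-values from 0.00106 to 0.0392. Of the 21 pairs of these probes, 1 pair shared a run of 25 bases or more, so that they read mostly different stretches of the transcript.

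With the 7 probes averaged, *Rpl17* ran from -0.53 to 0.0016 (median -0.21) in the Norm arrays and from -0.089 to 0.54 (median 0.24) in the Hypox arrays. The groups then overlapped only at their edges, and 12 of 12 Hypox arrays lay above the Norm median. Hypox exceeded Norm by a log2 fold change of 0.43 (SE 0.0722, *P*-value = 2.02e-06, adjusted over all genes 0.00923), and this average is an alternative to the brightest probe. It was higher in 6 of 6 slides, by 0.30 to 0.59, and the unadjusted *P*-value stayed at or below 5.79e-06 without any single array and at or below 6.35e-05 without any slide. The adjusted *P*-value ran from 0.00262 to 0.0257 without an array and from 0.0152 to 0.177 without a slide.

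A further 10 measured probes of other names, chosen after their values were seen, shared 29 to 50 bases with a *Rpl17* probe. All 10 were higher in Hypox, by 0.27 to 0.71, all passed unadjusted and 6 passed after adjustment. Among them the probe named *Rpl17-ps1*, a processed copy by its name, rose by 0.50 (SE 0.0881, adjusted *P*-value = 0.0121). Most of the 10, with all 6 that passed after adjustment, shared their run with the same *Rpl17* probe, so that they are not independent readings. Probes that share such runs may bind the same RNA, but neither this nor which locus gave the signal was tested. The brightest *Rpl17* probe alone lost its call in 12 of 24 fits that left out 1 array (*P*-value up to 0.0807), whereas the 7 probes kept their direction under the scanner software's processed signals (0.35 to 0.56, 3 after adjustment), Cy5 alone (0.21 to 0.52) and centring without loess (0.25 to 0.99, none past the threshold); in the deposited log2 values 6 of 7 were higher and 2 passed.

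**Figure D2:**
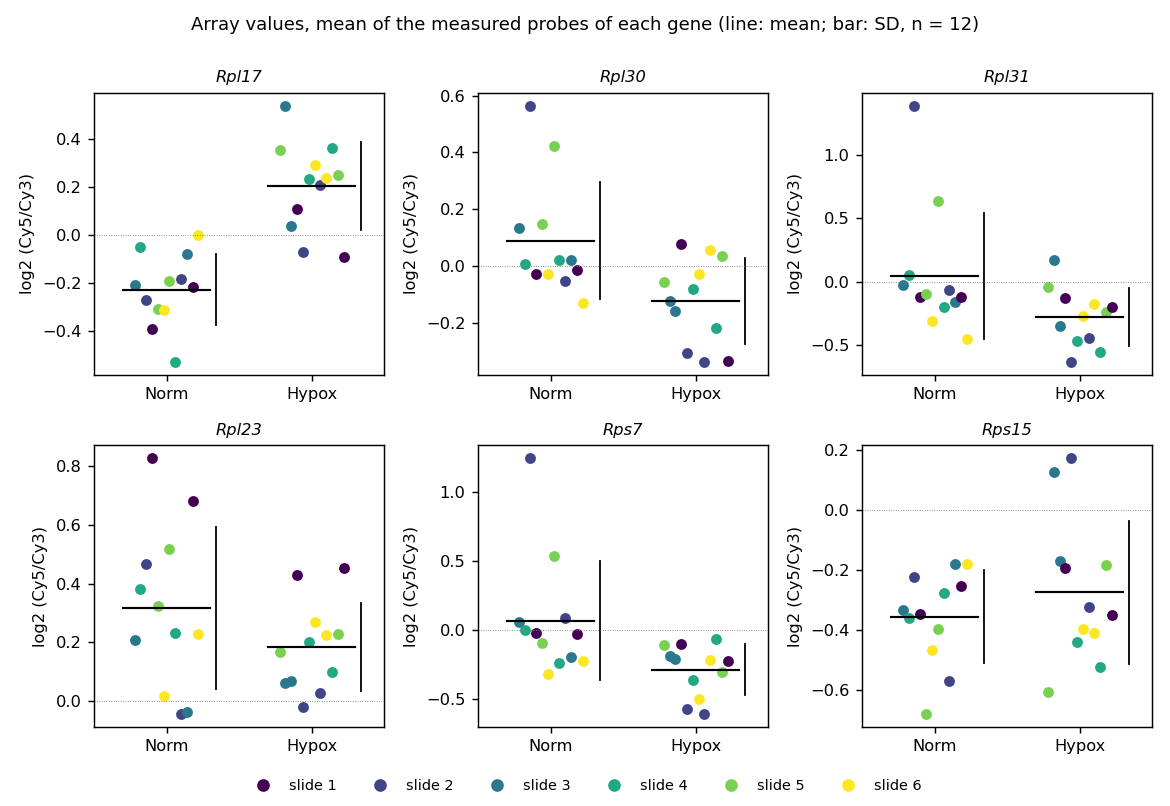
Log2 ratio of Cy5 to Cy3 (y axis) of each array in Norm and Hypox for 6 genes, as the mean of their measured probes and coloured by slide; lines are means and bars SD (n = 12 per group). *Rpl17* lies higher in Hypox on every slide, while the *Rps15* means of the groups lie 0.081 apart and a few Hypox arrays lie above all Norm arrays.

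*Rpl30*, which besides its place in the large subunit binds its own transcript, was lower in Hypox. Its brightest probe ran from -0.48 to 0.92 (median 0.12) in the Norm arrays and from -0.65 to 0.07 (median -0.19) in the Hypox arrays. This gave a log2 fold change of -0.34 (SE 0.117, *P*-value = 0.00673, adjusted 0.168), and Hypox was lower in 6 of 6 slides, by 0.036 to 0.66. The second *Rpl30* probe, 60 bases with no run shared with a probe of another name, gave -0.38 (*P*-value = 0.00477). The third, at 3.31 times the background, gave 0.093 (*P*-value = 0.264). It held a stop codon in each reading frame, as did other member probes, among them the highest of *Rpl17* (0.60). The call of the brightest *Rpl30* probe was kept in all 24 fits without 1 array, with *P*-values up to 0.0148.

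*Rps7*, a small subunit protein that also binds Mdm2, was represented by a single probe. It ran from -0.31 to 1.25 (median -0.022) in the Norm arrays and from -0.61 to -0.059 (median -0.22) in the Hypox arrays. All 12 Hypox arrays lay below the Norm median, and 4 of them below the lowest Norm array. The log2 fold change was -0.35 (SE 0.129, *P*-value = 0.0102, adjusted 0.199), lower in 6 of 6 slides. It was -0.17 (*P*-value = 0.063) without slide 2, which held the highest Norm array.

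*Rpl31* had the lowest log2 fold change of the large subunit. Its brightest probe ran from -0.86 to 1.62 (median 0.15) in the Norm arrays and from -1.01 to 0.24 (median -0.03) in the Hypox arrays. Hypox minus Norm was -0.46 (SE 0.191, *P*-value = 0.0222, adjusted 0.262), lower in 5 of 6 slides. All 4 measured *Rpl31* probes were lower, by 0.22 to 0.46, and 2 of them passed. The brightest probe and the next in brightness (-0.22, *P*-value = 0.311) overlap in annotated position, yet their longest shared run was 16 bases. Whether the brightest probe matches the *Rpl31* transcript was not tested. The call was lost without slide 2 (-0.33, *P*-value = 0.0827) and without slide 4 (-0.42, *P*-value = 0.0742).

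*Rpl23*, another large subunit protein known to bind Mdm2, ran from 0.30 to 1.84 (median 0.82) in the Norm arrays and from 0.21 to 1.05 (median 0.50) in the Hypox arrays. The log2 fold change was -0.36 (SE 0.141, *P*-value = 0.0177, adjusted 0.239), lower in 5 of 6 slides. Its other probes gave -0.15 (*P*-value = 0.228) and, at 3.75 times the background, 0.11 (*P*-value = 0.0758). The call was lost without slide 2 (*P*-value = 0.0662) and without slide 5 (*P*-value = 0.0579), and for the processed signals (-0.11) and Cy5 alone (-0.19).

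At the ends of the small subunit stood genes that did not pass with the brightest probe in the fit without blocks. *Rps14* had the lowest log2 fold change, -0.50 (SE 0.269, *P*-value = 0.0758), and ran from 0.22 to 3.09 (median 1.28) in the Norm arrays and from 0.27 to 2.23 (median 0.64) in the Hypox arrays. This span of Norm was the widest of the genes described here. *Rps14* passed, lower in Hypox, with array weights (*P*-value = 0.0201), without slide 1 (0.0192), without slide 6 (0.031) and in 4 of 24 fits without 1 array. *Rps9* had the highest, 0.34 (SE 0.167, *P*-value = 0.0516), and ran from -0.44 to 0.74 (median 0.049) in the Norm arrays and from -0.53 to 1.61 (median 0.34) in the Hypox arrays. *Rps9* passed, higher in Hypox, with the processed signals (*P*-value = 0.0182), Cy5 alone (0.0244), the replicate block (0.0184), array weights (0.0257), without slide 1 (0.00813) and in 7 of 24 fits without 1 array. *Rps12* (-0.30, *P*-value = 0.0665) and *Rps27* (-0.33, *P*-value = 0.142) were lower in 6 of 6 slides without passing. With the slide as a block both passed (*P*-value = 0.00114 and 0.0486), as did *Rps14* (*P*-value = 0.00256), and *Rps12* also passed with the replicate number as a block (*P*-value = 0.0413). By the brightest probe no member gene was higher on all 6.

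*Rps15*, used as a reference gene, had a log2 fold change of 0.0065 (SE 0.113, 95% interval -0.23 to 0.24, *P*-value = 0.955). It ran from -0.61 to 0.16 (median -0.26) in the Norm arrays and from -0.59 to 0.49 (median -0.26) in the Hypox arrays, and was higher in 3 slides and lower in 3. Its dimmer probe gave 0.15 (*P*-value = 0.173). The smallest difference in *Rps15* that 12 arrays per group could detect was not tested.

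The 3 stalk proteins, which recruit the elongation factors to the large subunit, lay on the same side of 0. *Rplp1* had a log2 fold change of -0.22 (95% interval -0.50 to 0.047, *P*-value = 0.102), *Rplp2* of -0.18 (-0.56 to 0.19, *P*-value = 0.33) and *Rplp0* of -0.056 (-0.47 to 0.36, *P*-value = 0.783). None passed, although with the slide as a block *Rplp1* (*P*-value = 0.013) and *Rplp2* (*P*-value = 0.0377) passed lower, and with processed signals *Rplp0* passed higher (0.19, *P*-value = 0.0165). The sign of all 3 turned when arrays were centred without loess (values relative to the median of all genes 0.12, 0.22 and 0.38).

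Of the paralogs, which replace the usual protein in certain tissues, 4 were measured beside their main gene. The muscle paralog *Rpl3l* had the highest log2 fold change of the large subunit, 0.32 (95% interval -0.12 to 0.76, *P*-value = 0.144), and ran from -0.61 to 0.22 (median -0.34) in the Norm arrays and from -0.96 to 1.67 (median -0.18) in the Hypox arrays. The *Rpl3l* value fell to 0.17 without Hypox replicate 4 and to 0.19 without Hypox replicate 2, below that of *Rpl17* in both fits (0.21 and 0.33). *Rpl3* had 0.14 (-0.10 to 0.38, *P*-value = 0.249). *Rpl22l1* (-0.20, *P*-value = 0.284) and *Rpl22* (-0.10, *P*-value = 0.661) did not pass, nor did *Rpl36al* (-0.11, *P*-value = 0.522) or *Rpl36a* (-0.25, *P*-value = 0.111). *Rps27l*, a target of p53, had 0.016 (*P*-value = 0.94), and *Rps27* -0.33 as above. The main genes whose paralogs were not measured gave -0.15 for *Rpl7*, -0.19 for *Rpl10* and -0.13 for *Rpl39*, with *P*-values from 0.304 to 0.496. The difference between paralog and main gene was not tested for any pair.

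The probes of a gene often went opposite ways. Of the 174 member probes, 84 were higher and 90 lower, 24 passed unadjusted (13.8%, against 14.1% of all probes), 14 of them higher and 10 lower. Of the 55 member genes with several measured probes, 29 (52.7%) had all probes on the same side of 0, 13 higher and 16 lower, against 58.4% of 1699 other such genes. The share was 47.1% for the *Rpl* genes and 61.9% for the *Rps* genes. *Rpl27*, whose protein belongs to the large subunit, was the widest case: its brightest probe gave -0.17 (*P*-value = 0.275) and its dimmest, shown above, 0.39 (SE 0.12, *P*-value = 0.00266). The array annotation placed both on chromosome 11 and they share no run of 25 bases.

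The dimmer probe was usually the higher. The log2 fold change of the dimmest measured probe exceeded that of the brightest in 39 of 55 member genes, with a median difference of 0.096, against 899 of 1699 other genes and a median of 0.012. In *Rpl7a* the dimmest probe gave 0.42 (*P*-value = 0.00173) and the brightest 0.11 (*P*-value = 0.61). In *Rpl12* they gave 0.42 (*P*-value = 0.024) and 0.21, in *Rps2* 0.41 (*P*-value = 0.0204) and 0.16, and in *Rpl3* 0.32 (*P*-value = 0.0284) and 0.14. The array annotation placed both *Rps2* probes on chromosome 17, but far apart, the brightest at 42864841 and the dimmest at 24857583. Whether they read the same gene was not tested. *Rps16* gave 0.20 (*P*-value = 0.0379) and 0.059. *Rpl7* was the opposite case, with 4 of 4 probes lower and the 2 past the threshold, at -0.36 and -0.25, dimmer than the brightest at -0.15.

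**Figure D3:**
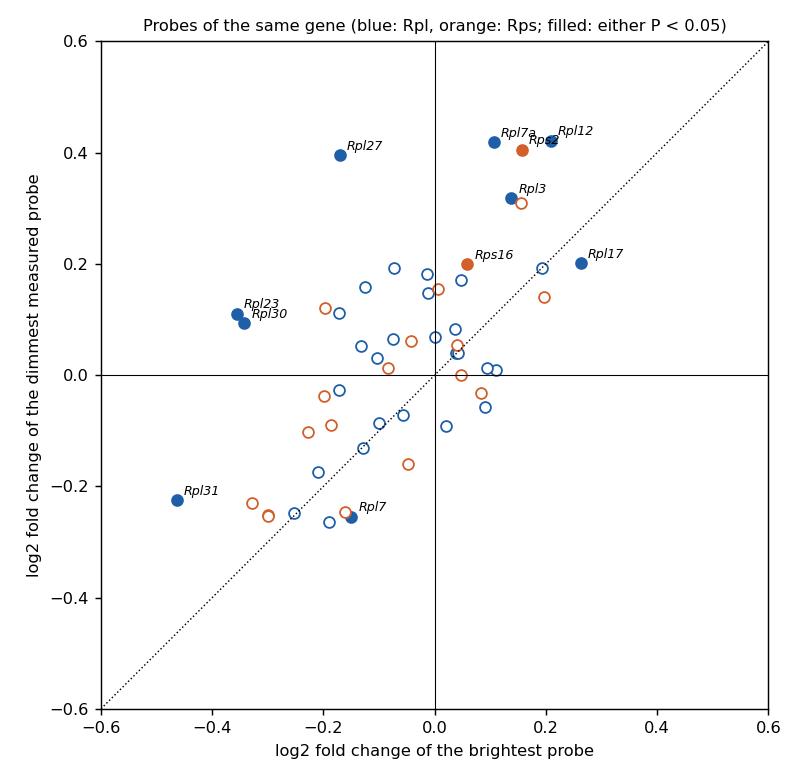
Log2 fold change of the dimmest measured probe (y axis) against that of the brightest (x axis) of the genes with several measured probes that are reported by name; the dotted line marks equality, and named genes had either probe past an unadjusted *P*-value of 0.05. Most points lie above the line, as did 39 of all 55 such genes.

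The log2 fold change fell with the brightness of the probe among the members and among other probes; the difference between them was not tested. The 58 dimmest member probes had a median of 0.087 (42 higher, 11 of which passed, and 16 lower, 1 of which passed), the 58 of middle brightness -0.037 and the 58 brightest -0.12 (17 higher, 41 lower; none passed higher and 3 passed lower). Other probes within the same limits of brightness had medians of 0.03, -0.033 and -0.16. Of these, 1004 passed higher and 777 lower of 12276 in the dimmest class (8.18% and 6.33%), and none higher and 71 lower of 445 in the brightest. Of the 445 other probes as bright as the brightest members, 355 were lower and 90 higher. Members made up 2 of the 143 brightest measured probes (1.40%), 24 of the 300 brightest (8.00%) and 1.22% of all measured probes. Where *Rpl* and *Rps* genes are set against all genes, they are thus set against dimmer probes, with a median log2 intensity of 13.3 and 13.4 against 8.42; the part of brightness in the medians above was not tested.

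**Figure D4:**
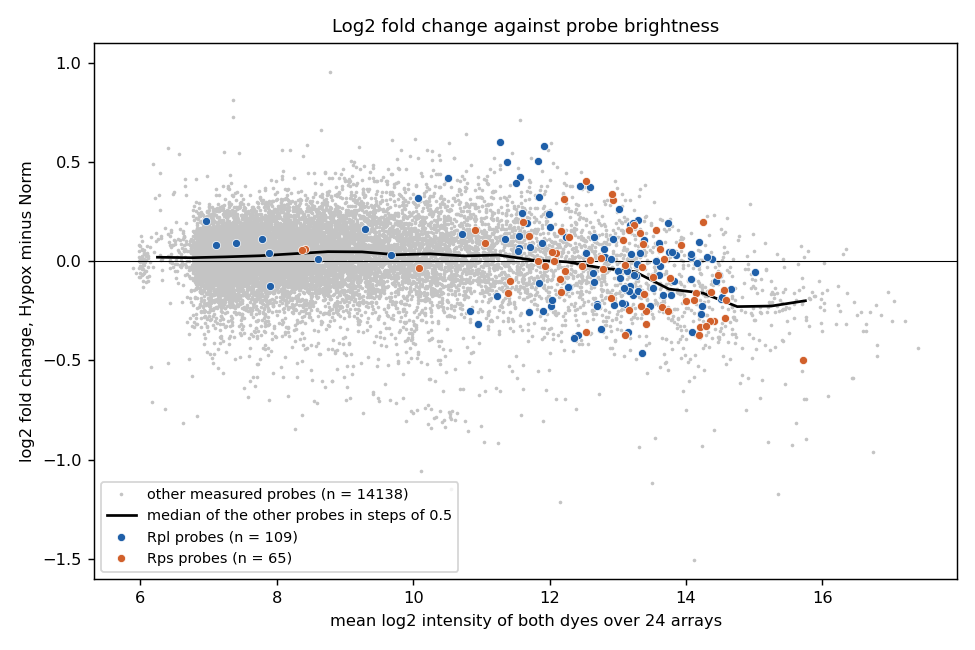
Log2 fold change of Hypox minus Norm (y axis) against mean log2 intensity of both dyes (x axis) of the 14312 measured probes, with the 109 *Rpl* and 65 *Rps* probes in colour and the running median of the other probes as a line. Members lie mostly in the bright range, where the line falls below 0.

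The difference also varied between slides. Each of the 6 slides held 2 Norm and 2 Hypox arrays. The median difference of the *Rpl* genes was -0.16, -0.14, -0.026, -0.13, -0.0016 and 0.11 on slides 1 to 6, and that of the *Rps* genes -0.24, -0.17, -0.057, -0.13, 0.065 and 0.083. On slide 6, 33 of 49 *Rpl* and 22 of 32 *Rps* genes were higher, on slide 1 17 and 6. Slide 1 was the dimmest, with a mean Cy5 signal of 63.1 in Norm and 82.7 in Hypox, and slide 6 the brightest, with 789 and 901; the part of signal in these differences was not tested. With the slide as a block, 7 *Rpl* genes (1 higher, 6 lower) and 7 *Rps* genes (all lower) passed unadjusted and none after adjustment. Together these were 17.3% of the members, beside 14.1% of all genes under the same block. Those added included *Rps12* (*P*-value = 0.00114), *Rps14* (*P*-value = 0.00256), *Rplp1* (*P*-value = 0.013), *Rplp2* (*P*-value = 0.0377) and *Rps27* (*P*-value = 0.0486).

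**Figure D5:**
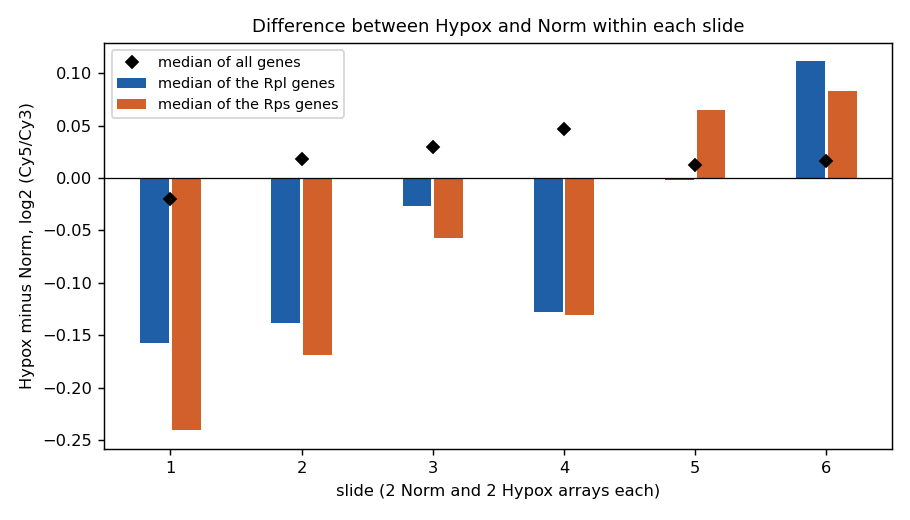
Median difference between Hypox and Norm in log2 ratio (y axis) of the *Rpl* genes, the *Rps* genes and all genes within each slide (x axis). The *Rpl* and *Rps* bars lie below 0 on slides 1 to 4 and above 0 on slide 6.

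Many member probes resemble copies elsewhere, as ribosomal protein genes have many processed pseudogenes. Of the 174 measured member probes, 68 of 41 genes shared a run of 25 or more bases with a probe of another name, 35 of them the brightest of their gene. Of the 98 measured probes of other names involved, 83 carried no gene name. Both probes had the same sign in 86 of 113 such pairs (76.1%). Probes of the same gene had opposite signs in 36 of 130 pairs that shared under 25 bases (27.7%). Where they shared 25 bases or more, the signs were opposite in 8 of 18 pairs (44.4%). Whether shared runs go with shared signs was not tested. The array annotation placed 11 measured member probes on another chromosome than the RefSeq gene, among them all 4 of *Rps27* and all 3 of *Rps29*, so that the values of these genes may belong to copies. Only chromosomes were compared, so that distant positions on the same chromosome, as between the *Rps2* probes, are not in this count.

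Other genes of the ribosome were read from fixed lists. Over all genes 12.1% passed unadjusted, 7.07% higher and 4.99% lower, with a median log2 fold change of 0.029. *Fau*, which codes for a small subunit protein fused to a ubiquitin-like one, and *Rack1*, which sits on the small subunit, had log2 fold changes of -0.10 and 0.032 and neither passed. Of 78 mitochondrial ribosomal protein genes, 20 (25.6%) passed higher and none lower, with a median of 0.13, for example *Mrpl18* (0.32, *P*-value = 0.000714) and *Mrpl28* (0.47, *P*-value = 0.00157). Of 63 measured ribosome assembly factors 6 passed higher, such as *Ddx27* (0.27, *P*-value = 0.023), and none lower, with a median of 0.078. This share, 9.52%, was below the 12.1% of all genes that passed in either direction and above the 7.07% that passed higher. Among 13 measured genes of ribosomal RNA transcription, *Polr1c* (0.20), *Polr1d* (0.33) and *Taf1c* (0.17) were higher and *Tcof1*, a nucleolar factor of that transcription, was lower (-0.38, adjusted *P*-value = 0.0205). In this short list 30.8% passed. Of 18 regulators of TOP mRNAs, *Ssb*, the La protein that binds their start, was lower (-0.36, *P*-value = 0.000602, adjusted 0.0559) and no other passed (5.56%). Of 18 other genes with a TOP start, *Naca* (-0.23, *P*-value = 0.0237) and the host of small nucleolar RNAs *Gas5* (-0.43, *P*-value = 0.028) were lower (11.1%), with a list median of -0.076.

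Markers of other cells that the muscle can hold were read beside these values. Of the nerve sheath 5 markers were measured and 3 were lower in Hypox, of adipocytes 5 and 2 lower, of fibroblasts 8 and 2 lower, of endothelium 4 and 1 higher, and of leukocytes 6 and red blood cells 3 with none past the threshold. The mean log2 ratio of the adipocyte markers lay between -0.68 and 0.96 in Norm arrays and between -0.72 and -0.12 in Hypox arrays, and that of the nerve sheath between -0.39 and 0.43 and between -0.67 and 0.099. Their part in the lower values of *Rpl30*, *Rps7*, *Rpl31* and *Rpl23* was not tested. Of 6 listed lung markers 1 was measured, *Sftpc*, which was well above background on 4 of 24 arrays. *Sftpc* passed higher in Hypox (0.81, SE 0.316, *P*-value = 0.0157, adjusted 0.231).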

How the data were processed

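For the 24 arrays, 2-colour Agilent mouse arrays, the deposited files hold spot intensity (mean signal and local background in each dye) as Agilent Feature Extraction 10.7.3.1 wrote it, with annotation on mm9. The authors also deposited log2 values, normalized in GeneMaths XT; their centring and their use of the reference channel are not given in the sources used here. Groups came from the sample titles. Cy5 was taken as the mouse and Cy3 as the pool, as the descriptions state, although the dye fields of a few Hypox arrays name different dyes. Left out were control spots and 7260 flagged readings; 0 readings were saturated. Signals were corrected with normexp (offset 50), log2 ratios were normalized by loess within arrays and the spots of a probe averaged in limma 3.58.1 on R 4.3.3. Probes needed a mean Cy5 signal over 2 times background and at most 4 arrays without a value.

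Hypox and Norm were compared by limma's moderated test with Benjamini-Hochberg adjustment over 14312 probes, and an unadjusted *P*-value of 0.05, the study's threshold, was used throughout. The brightest probe stood for its gene; marker lists are means of log2 ratios. Genes were named where they passed (at most 10 per subunit and direction), at the ends of each subunit, as paralog pairs, stalk proteins or reference gene, or where their probes differed in sign with one past the threshold; others were named after their values were seen. A few genes enter the counts but are not reported here by name. The members and lists were chosen with earlier results of these data known. On simulated data limma recovered 97.0% of 200 probes changed by 1 (log2) with 10 false calls. Smaller changes, such as those of the member probes (-0.50 to 0.60), were not simulated. The number of arrays, and the 9.42% to 37.8% of spots well above background in Cy5, limit the precision. The alternatives were other background and scaling settings, probe filters and choices, blocks, array weights, the methods' t-test and the leaving out of arrays and slides.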

Additional observations from a re-analysis of the deposited data

How the results depend on the processing

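The direction of the group turned with the scaling, and the cause was not tested. With the scanner software's processed signals 9 *Rpl* genes (7 higher, 2 lower) and 5 *Rps* genes (4 higher, 1 lower) passed an unadjusted *P*-value of 0.05. With Cy5 alone 2 *Rpl* genes (1 higher, 1 lower) and 3 *Rps* genes (2 higher, 1 lower) passed, 6.17% of the members beside 7.98% of all genes. With centring without loess and with the deposited log2 values 0 and 0 passed. Centring without loess raised the median of all genes from 0.029 to 0.25; relative to it the medians were 0.25 for *Rpl* and 0.23 for *Rps* genes. In the deposited values they were 0.37 and 0.30 beside 0.085 for all genes. With the slide as a block 7 *Rpl* and 7 *Rps* genes passed, and with array weights 9 and 7, of which *Rpl17* (adjusted *P*-value = 0.0373) and *Rpl30* (adjusted *P*-value = 0.026) passed after adjustment. The mean of the probes gave 6 *Rpl* and 4 *Rps* genes, 12.3% of the members beside 13.2% of all genes. The dimmest probe, chosen after seeing the data, also gave 6 and 4, beside 12.4% of all genes (7.57% higher, 4.81% lower). There the split of the members turned to 7 higher and 3 lower, from 1 and 4. Without slide 1, 2, 3, 5 and 6, 4, 0, 2, 2 and 3 *Rps* genes passed, and without slide 2, 4 and 5, 1, 2 and 2 *Rpl* genes. In the fits without a slide 8.9% to 13.9% of all genes passed. Without 1 array, 3 to 5 *Rpl* genes and 1 to 6 *Rps* genes passed, beside 10.6% to 14% of all genes. Of the *Rps* genes 6 passed when Norm replicate 12 was left out, 3 to 5 when the array left out was Norm 5, 6, 9, 10 or 11 or Hypox 4, 5 or 12, and 2 when it was Norm 2 or Hypox 6 or 9. The medians then ran from -0.098 to -0.013 for *Rpl* and from -0.11 to -0.038 for *Rps* genes. The *Rpl* median was 0.091 with Cy5 alone, 0.040 with the dimmest probe and 0.013 with processed signals, and the *Rps* median 0.011 with processed signals. Under the remaining alternatives, among them loess without the member probes (added after seeing the data), both medians were below 0.

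Mice of the same replicate number did not deviate together: their correlations ran from -0.22 to 0.54 over the 12 pairs, 3 of them over 0.1, so that the numbers were not taken to pair the mice. With the replicate number as a block 3 *Rpl* and 3 *Rps* genes passed, 7.41% of the members beside 12.7% of all genes. *Rpl17* (0.26) no longer passed, with a *P*-value of 0.0635.

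Of the named genes, these log2 fold changes changed sign, none of them past the threshold in both settings. With centring without loess, relative to all genes, they were *Rpl10* 0.22, *Rpl22* 0.19, *Rpl22l1* 0.0056, *Rpl23* 0.051, *Rpl27* 0.13, *Rpl36al* 0.0701, *Rpl39* 0.092, *Rpl7* 0.14, *Rplp0* 0.38, *Rplp1* 0.12, *Rplp2* 0.22, *Rps14* 0.011 and *Rps27* 0.0702. With the deposited values they were *Rpl10* 0.31, *Rpl22* 0.25, *Rpl22l1* 0.12, *Rpl23* 0.12, *Rpl27* 0.21, *Rpl30* 0.033, *Rpl36a* 0.0802, *Rpl36al* 0.17, *Rpl39* 0.16, *Rpl7* 0.21, *Rplp0* 0.45, *Rplp1* 0.18, *Rplp2* 0.27, *Rps14* 0.0705 and *Rps27* 0.15. With processed signals this was *Rplp0* at 0.19, with Cy5 alone *Rpl10* 0.091, *Rplp0* 0.21, *Rplp2* 0.019 and *Rps27l* -0.10. With the mean of the probes it was *Rpl27* at 0.11, and with the dimmest probe *Rpl22* 0.031, *Rpl23* 0.11, *Rpl27* 0.39 and *Rpl30* 0.093. With array weights *Rps15* was -0.064 and *Rps27l* -0.044. Without slide 1 *Rpl22* was 0.0101, *Rplp0* 0.011 and *Rps27l* -0.17, without slide 2 *Rpl22* 0.053, *Rpl39* 0.046 and *Rpl7* 0.057, without slide 3 *Rps15* -0.077, without slide 5 *Rps15* -0.0094, and without slide 6 *Rps15* -0.00362 and *Rps27l* -0.068. Without 1 array *Rps15* ran from -0.058 to 0.041, *Rps27l* from -0.14 to 0.14, *Rpl22* from -0.26 to 0.022 and *Rplp0* from -0.14 to 0.055.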
